A study of Mus musculus with 4 samples.

Results

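Tuft cells are rare chemosensory cells of the intestinal epithelium, and 10 genes that mark them were followed in mouse small intestinal (SI) organoids with and without a miR-181a-5p mimic. The genes were taken as a fixed list of symbols, Pou2f3, Gfi1b, Sucnr1, Trpm5, Il25, Alox5ap, Ptgs1, Hpgds, Dclk1 and Avil, and all 10 were among the 55487 genes of the tables. The organoids are epithelial cultures grown in Matrigel from SI crypts. Both groups were infected with a lentivirus, which carried a miRNA mimic control in replicates 1 and 2 or the miR-181a-5p mimic in replicates 3 and 4, and both were selected in puromycin at 2 μg/ml. RNA-seq was performed on these 2 control and 2 mimic libraries, which held between 31104884 and 38111731 expected counts. An expected count is the estimate by RSEM of the reads that a gene gave. The sources used here do not give the strain, sex or age of the mice, nor whether each library stands for an infection of its own, so the p-values measure the spread between these libraries, which may be technical.

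Tuft cells carry a taste-type signalling cascade that ends in the cation channel Trpm5. Succinate and other luminal signals lead this channel to open, and the cells then release the cytokine Il25 together with lipid mediators, leukotrienes and prostaglandins, which act on immune cells below the epithelium. In the small intestine Il25 activates group 2 innate lymphoid cells, whose Il13 in turn raises the number of tuft and goblet cells. Cultured crypts lack those lymphoid cells, and without added type 2 cytokines tuft cells usually stay few in them.

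Of the 10 genes, 5 passed the filter on low counts and were tested. Between mimic and control, 0 of these 5 passed an adjusted p under 0.05, against 3.57% of all 17155 genes tested. Pou2f3, Trpm5, Dclk1, Avil and Hpgds were read at 39 to 182.5 counts per library, Alox5ap and Ptgs1 at 2 to 15 counts, and Il25, Gfi1b and Sucnr1 at 2 counts or fewer in every library. The control libraries differed from each other, with control 1 at 1.97 to 2.42 times control 2 for Pou2f3, Dclk1 and Avil.

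A miRNA lowers mRNAs that pair with its seed, bases 2 to 8 of the mature strand. The mature miR-181a-5p of the mouse is shown because its canonical targets match the capitals, which mark the seed. The mature strand lies in Mir181a-1 on chromosome 1 (GRCm38.p6, RefSeq, 137966468 to 137966490, plus strand) and Mir181a-2 on chromosome 2 (38852741 to 38852763, plus strand).
mmu-miR-181a-5p: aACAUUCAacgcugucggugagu
The match to the whole seed, TGAATGT, was sought in the longest annotated 3' UTR of each gene. Dclk1 and Ptgs1 held it and the other 8 did not. The 26 bases around each site are shown with the match in capitals, the second site of Dclk1 having in addition the A that faces base 1 of the miRNA, which makes it an 8mer. All are on the plus strand of GRCm38.
Dclk1, chr3:55533998-55534023: tagaagtaaTGAATGTtttcatcagt
Dclk1, chr3:55535236-55535261: ttcttgcttTGAATGTAttttaatgt
Dclk1, chr3:55538925-55538950: aattgtaggTGAATGTggaatgaaat
Ptgs1, chr2:36251976-36252001: ttcccaactTGAATGTctagaatgtg
The sites of Dclk1 start 380, 1618 and 5307 bases into a 3' UTR of 5437 bases, and that of Ptgs1 starts 634 bases into 921 bases. A site of this kind was present in 2 of the 10 genes and in 16.7% of all 20674 genes with an annotated 3' UTR, whose median length was 988 bases, so the 3' UTR of Dclk1 is long. Matches without base 8 but with an A facing base 1, GAATGTA, were counted apart and are not shown. Dclk1 held 2, of which 1 lies in its 8mer, Ptgs1 held 1 and the other 8 genes held 0. A match describes the sequence only and does not show that the miRNA acted there.

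**Figure D1:**
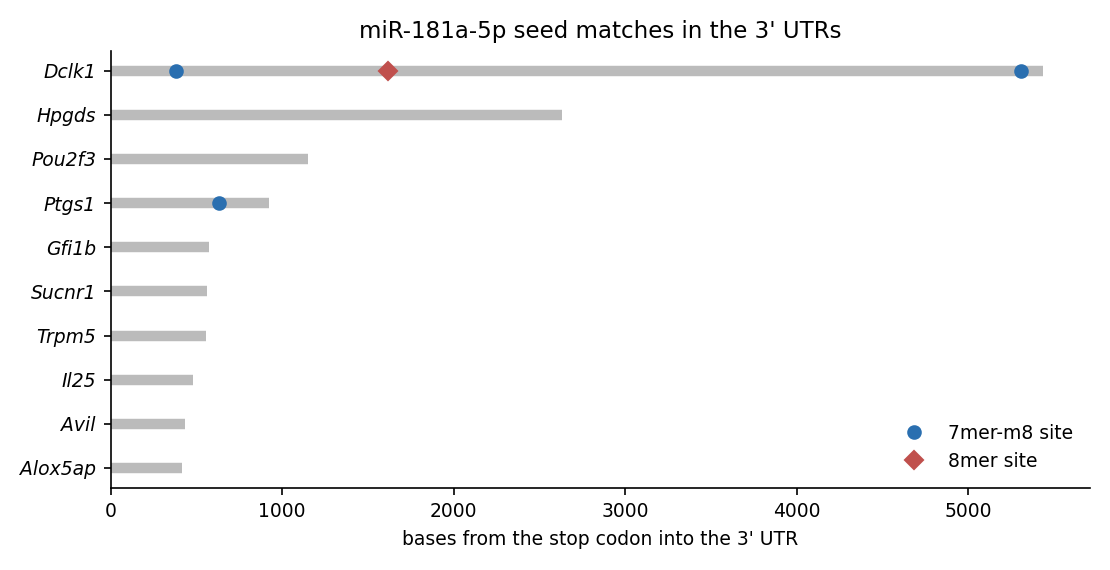
The grey bars give the length of the longest annotated 3' UTR of each of the 10 genes, in bases from the stop codon, and the symbols give the matches to the miR-181a-5p seed (circles, 7mer-m8; diamond, 8mer). Dclk1 has 3 matches of these 2 kinds over 5437 bases, Ptgs1 has 1, and the other 8 genes have none.

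Levels of different genes were compared in TPM, a share of all transcripts that corrects for transcript length. Over the 4 libraries the mean TPM was 1.86 for Trpm5, 1.35 for Pou2f3, 1.04 for Dclk1, 0.907 for Avil, 0.772 for Hpgds, 0.443 for Alox5ap, 0.14 for Ptgs1, 0.035 for Il25, 0.015 for Gfi1b and 0.01 for Sucnr1. In this order each gene overlapped its neighbour in range over the libraries, except Ptgs1 (0.08 to 0.18 TPM) and Il25 (0 to 0.06 TPM), which did not. Together the 10 genes summed to 8.56 and 5.03 TPM in the controls and to 5.56 and 7.12 TPM with the mimic. General epithelial markers (Epcam, Cdh1, Krt8, Krt18, Krt19, Vil1, Cdx1 and Cdx2) summed to between 2689 and 3170 TPM, so the libraries were epithelial and transcripts of the 10 genes were rare in them. In bulk RNA, fewer tuft cells and less RNA per tuft cell cannot be told apart.

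**Figure D2:**
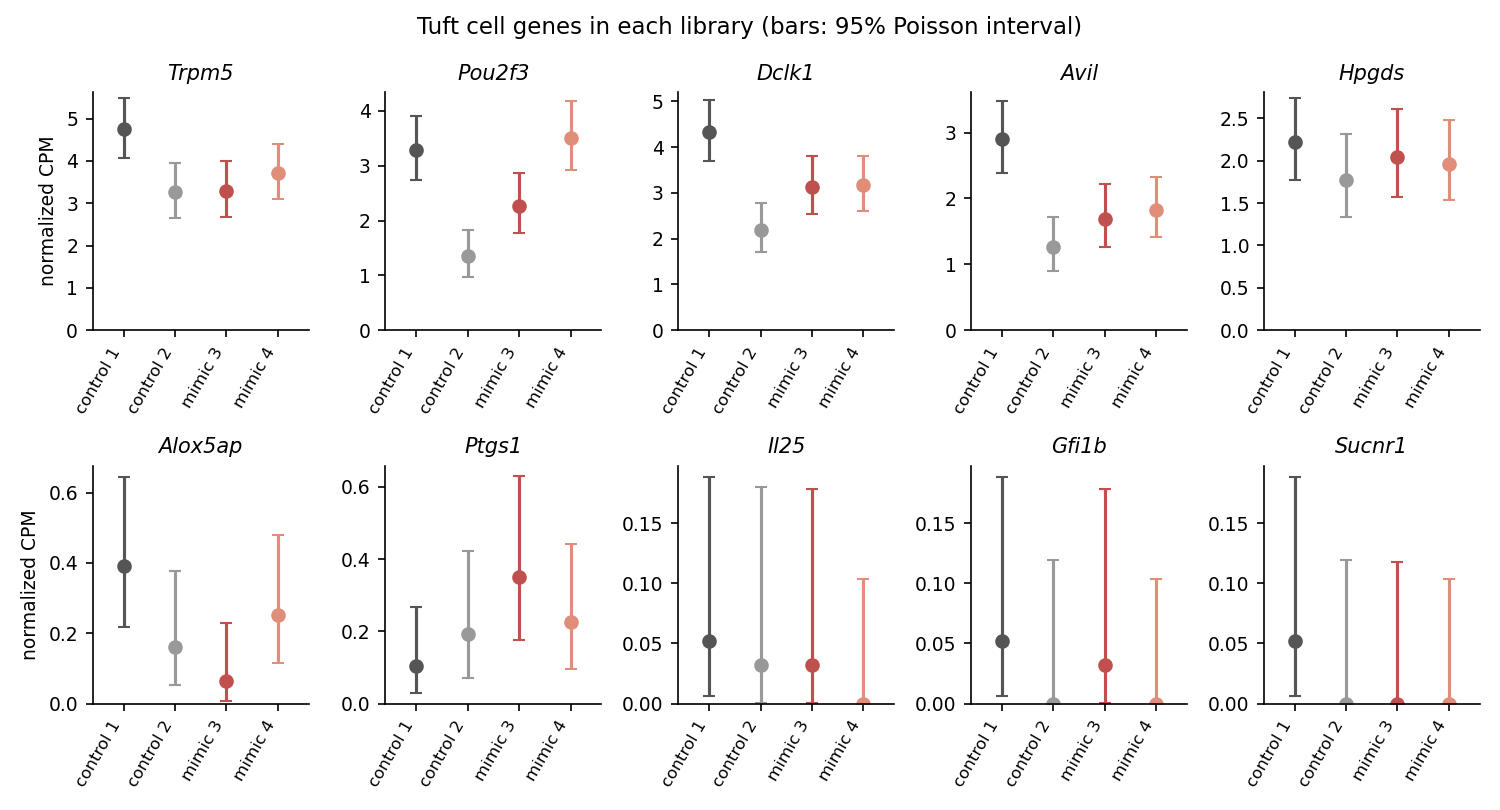
Each panel shows 1 of the 10 genes in the 4 libraries, as CPM scaled by the TMM method (normalized CPM, linear axis from 0, a separate scale for each gene), with exact 95% Poisson intervals that cover counting error only. For Pou2f3, Dclk1, Avil and Trpm5 the interval of control 1 lies above that of control 2, and the mimic libraries do not stand apart from the controls in any of the 5 upper panels.

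Pou2f3 is the transcription factor on which tuft cell formation depends. It lies on the minus strand of chromosome 9 (GRCm38, 43123939 to 43210369). It had 126 and 42 counts in controls 1 and 2 and 71 and 125 counts in mimic replicates 3 and 4. In normalized CPM, which correct for library size, these were 3.29, 1.36, 2.27 and 3.51. The highest value was that of a mimic library and the lowest that of a control, and the groups overlapped. The mean was 2.32 ± 1.37 in the controls and 2.89 ± 0.88 with the mimic (SD, n = 2), with a log2 fold change of mimic over control of 0.29 (95% interval from -0.67 to 1.26). This difference was smaller than the spread between the controls (edgeR adjusted p = 0.698, from its quasi-likelihood test with all genes tested in the Benjamini-Hochberg adjustment).

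Gfi1b, a zinc finger repressor also used by blood cells and by tuft cells, lies on the minus strand of chromosome 2 (28609450 to 28621982). It had 2 and 0 counts in the controls, against 1 and 0 in the mimic libraries. At 3 counts or fewer in every library, no fold change is given for it. The floor of 3 counts that a count of 0 allows is 0.0946 CPM of the library total in control 2 and 0.0849 CPM in mimic replicate 4, while the two-sided exact 95% Poisson interval of these zeros reaches 0.119 and 0.104 normalized CPM.

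POU factors bind the octamer ATGCAAAT, and the promoters of the 10 genes were read for it on both strands, since it is the motif that Pou2f3 and its relatives recognise. Of the genes, 7 were matched in the RefSeq promoter table (GRCm38.p6, from 250 bases before to 50 bases after each start), with 8 promoters because Dclk1 has 2. The octamer was found in 2 of the 8, those of Sucnr1 and Hpgds, and in 1.74% of all 32851 promoters of that length. The windows below run 5′ to 3′ on the strand of the gene with the octamer in capitals.
Sucnr1, chr3:60081791-60081858, plus strand: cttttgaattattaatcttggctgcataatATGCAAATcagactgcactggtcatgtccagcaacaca
Hpgds, chr6:65144867-65144934, minus strand: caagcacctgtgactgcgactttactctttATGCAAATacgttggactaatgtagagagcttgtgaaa
The octamer begins 48 bases before the RefSeq start of Sucnr1 and 174 bases before the RefSeq start of Hpgds. The GENCODE gene of Hpgds, whose coordinates are given below, starts further upstream, so the octamer lies just inside that gene. Of this pair only Hpgds was read at a level that could be tested. Binding was not measured.

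Sucnr1, the receptor through which tuft cells sense succinate, lies on the plus strand of chromosome 3 (60081869 to 60087566). It had 2 counts in control 1 and 0 in the other 3 libraries, and is not given a fold change. Its signal passes to Trpm5, the cation channel at the end of the cascade, on the minus strand of chromosome 7 (143069153 to 143094642). Trpm5 had 182.5 and 100.8 expected counts in the controls, against 103.3 and 132.3 in the mimic libraries, or 4.75, 3.26, 3.29 and 3.71 normalized CPM. Both mimic libraries lay between the controls. The mean was 4.003 ± 1.052 in the controls and 3.50 ± 0.30 with the mimic (SD, n = 2), a log2 fold change of -0.20 (95% interval from -0.79 to 0.38, edgeR adjusted p = 0.656). An exon of Trpm5 overlaps Tssc4 on the opposite strand, and its counts were not whole in any of the 4 libraries, so reads could be divided between the genes.

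Il25, the cytokine that tuft cells send to innate lymphoid cells, lies on the plus strand of chromosome 14 (54932695 to 54935837). It had 2 and 1 counts in the controls, against 1 and 0 in the mimic libraries, which is too few for a fold change.

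Alox5ap, Ptgs1 and Hpgds make lipid mediators. Alox5ap (chromosome 5, 149264767 to 149288153, plus strand) encodes the protein that presents arachidonic acid to 5-lipoxygenase in leukotriene synthesis. It had 15 and 5 counts in the controls, against 2 and 9 in the mimic libraries, so control 1 was highest and mimic replicate 3 lowest. Ptgs1 (chromosome 2, 36230426 to 36252272, plus strand) encodes cyclooxygenase 1, which starts prostaglandin synthesis. It had 4 and 6 counts in the controls, against 11 and 8 in the mimic libraries. In normalized CPM these were 0.104, 0.194, 0.351 and 0.225, so both mimic libraries lay above both controls, but the exact Poisson intervals of all 4 overlapped (from 0.0284 to 0.267 in control 1 and from 0.175 to 0.629 in mimic replicate 3). Neither gene passed the filter on low counts. Fitted without the filter, Alox5ap had a log2 fold change of -0.79 (edgeR adjusted p = 0.586) and Ptgs1 of 0.97 (edgeR adjusted p = 0.483). Ptgs1 holds 1 of the seed matches shown above, and whether the miRNA acts on it was not tested. Exons of both genes overlap a gene on the opposite strand.

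Hpgds, the prostaglandin D2 synthase of hematopoietic cells and tuft cells, lies on the minus strand of chromosome 6 (65117293 to 65144908). It had 85 and 55 counts in the controls, against 64 and 70 in the mimic libraries, or 2.22, 1.77, 2.04 and 1.97 normalized CPM. The mean was 1.996 ± 0.313 in the controls and 2.005 ± 0.055 with the mimic (SD, n = 2). The fitted fold change was 0.998 with a 95% interval from 0.654 to 1.52 (edgeR adjusted p = 0.997).

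Dclk1, a microtubule-associated kinase and the most used marker of intestinal tuft cells, lies on the plus strand of chromosome 3 (55242364 to 55539068). It had 166 and 68 counts in the controls, against 98 and 113 in the mimic libraries, or 4.33, 2.19, 3.13 and 3.17 normalized CPM. The mimic libraries were nearly equal and lay between the controls. The mean was 3.26 ± 1.51 in the controls and 3.15 ± 0.032 with the mimic (SD, n = 2), a log2 fold change of -0.07 (95% interval from -0.83 to 0.69, edgeR adjusted p = 0.918). Dclk1 holds 3 of the 4 matches to the whole seed, and the interval allows a level with the mimic between 0.562 and 1.62 of that in the controls. In TPM, where RSEM's length of the gene differed from library to library, the direction was the other one. Dclk1 had 1.27 and 0.46 TPM in the controls, against 0.94 and 1.48 TPM in the mimic libraries, a log2 difference of 0.27 on the log2(TPM + 1) scale (adjusted p = 0.618 in limma). Relative to control 1, the length behind the TPM was 1.42 in control 2, 0.982 in mimic replicate 3 and 0.69 in mimic replicate 4. Exons of Dclk1 overlap Gm42609 and Gm21954 on the opposite strand.

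Avil encodes advillin, an actin-binding protein of the villin family found in the apical bundle of tuft cells, and lies on the plus strand of chromosome 10 (127000709 to 127020994). It had 111 and 39 counts in the controls, against 52.7 and 65 in the mimic libraries, or 2.90, 1.26, 1.69 and 1.83 normalized CPM, so the mimic libraries again lay between the controls. The mean was 2.08 ± 1.16 in the controls and 1.76 ± 0.094 with the mimic (SD, n = 2), a log2 fold change of -0.27 (95% interval from -1.19 to 0.65, edgeR adjusted p = 0.713). An exon of Avil overlaps Tsfm on the opposite strand.

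Of the 5 tested genes, 0 passed an adjusted p under 0.05, against 3.57% of all 17155 genes tested, and 0 when a change of 2-fold or more was also required, against 2.06%. At an unadjusted p under 0.05 the count was 0 as well, against 24.8% of all genes, and the lowest unadjusted p was 0.447, for Trpm5. DESeq2 and edgeR's exact test on the same 5 genes, and limma on the 3 that passed its TPM filter, also gave 0 calls and 0 at an unadjusted p under 0.05. Of all 17155 genes DESeq2 called 1330 and the exact test 1778. Limma called 75 of 14035 on log2(TPM + 1) and 27 on log2(TPM + 0.1), so its 0 calls among 3 genes say little. The groups did not overlap for 0 of the 5, against 58.4% of all genes. For 4 of the 5 (Trpm5, Hpgds, Dclk1 and Avil) both mimic libraries lay inside the range of the controls in normalized CPM, which was so for 10.6% of all genes. In TPM this did not hold for Trpm5 (2.14 and 2.06 TPM in the controls, 1.71 and 1.54 TPM in the mimic libraries) or Hpgds (0.84 and 0.85 TPM, then 0.69 and 0.71 TPM), where both mimic libraries lay below both controls, nor for Dclk1, as given above. The length behind the TPM, relative to control 1, ran from 0.719 to 1.19 for Trpm5 and from 0.802 to 1.15 for Hpgds. The 95% intervals of the 5 fold changes reached from 0.44 at the lowest (Avil) to 2.4 at the highest (Pou2f3). For any 1 gene, 2 libraries per group allow an exact two-sided permutation p of 0.333 at the lowest.

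**Figure D3:**
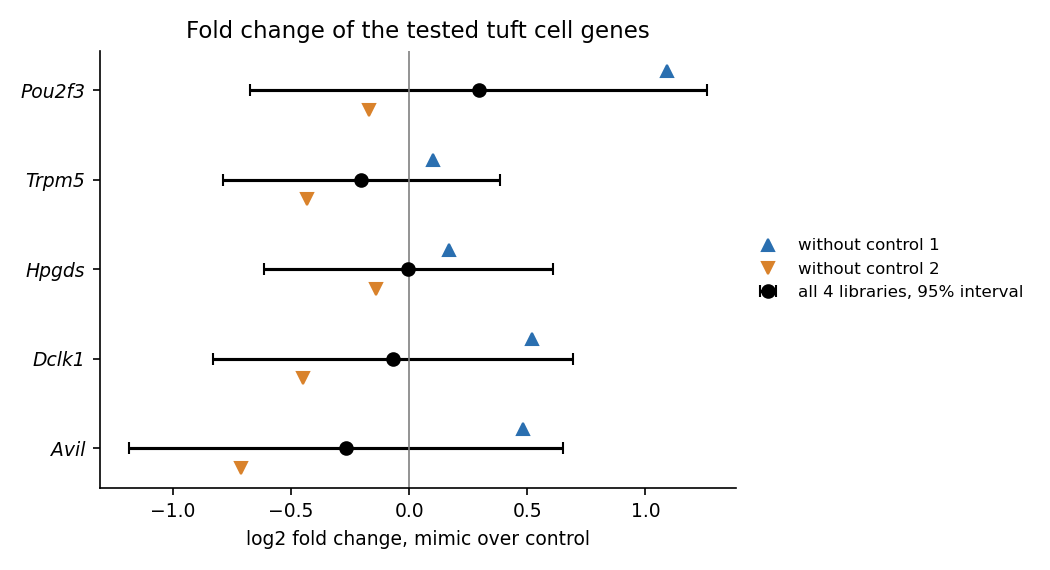
The x axis gives the log2 fold change of mimic over control for the 5 tested genes. Black circles with bars are edgeR's estimate from all 4 libraries with its 95% interval, blue triangles the estimate without control 1 and orange triangles that without control 2. Every interval spans 0, every value without control 1 lies above 0, and every value without control 2 lies below it.

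The direction of these values turned with the control that was left out. Without control 1 the log2 fold changes of the 5 genes lay between 0.10 (Trpm5) and 1.09 (Pou2f3), and without control 2 between -0.71 (Avil) and -0.14 (Hpgds). In these fits the lone control was assumed to vary like the other group. The lowest adjusted p without control 1 was 0.193, for Pou2f3, and without control 2 it was 0.161, for Avil, both by edgeR's quasi-likelihood test. Their unadjusted p were 0.0211 and 0.0462.

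Control 1 exceeded control 2 in normalized CPM by 2.42-fold for Pou2f3, 2.30-fold for Avil, 1.97-fold for Dclk1, 1.46-fold for Trpm5 and 1.25-fold for Hpgds. In TPM the controls were nearly equal for Trpm5 (2.14 and 2.06) and Hpgds (0.84 and 0.85). For 4 of the 5, all but Hpgds, the exact 95% Poisson interval of control 1 lay above that of control 2. At least 1.5-fold was reached by 3 of the 5, against 9.04% of all genes tested. Alox5ap, which was not tested, had 2.42-fold and Ptgs1 had 0.539-fold, both on few counts. Between the mimic libraries the 5 tested genes were closer, with replicate 4 over replicate 3 at 1.55-fold for Pou2f3 and between 0.962-fold and 1.13-fold for the other 4.

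Markers of other secretory cells also differed between the controls. Of the enteroendocrine list, 9 of 13 tested genes were at least 1.5-fold higher in control 1, and of the Paneth list 4 of 8. Goblet and general epithelial lists had 0 of 8 each. In the other direction, control 2 was at least 1.5-fold above control 1 for 2 goblet genes, Zg16 and Clca1, and 1 enteroendocrine gene, Pyy, which were named after their values were seen. Summed TPM of the Paneth markers was 2301 in control 1, 1231 in control 2, 1238 in mimic replicate 3 and 1569 in mimic replicate 4, and that of the enteroendocrine markers was 479, 322, 451 and 410. The part of cell composition in the difference between the controls was not tested.

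**Figure D4:**
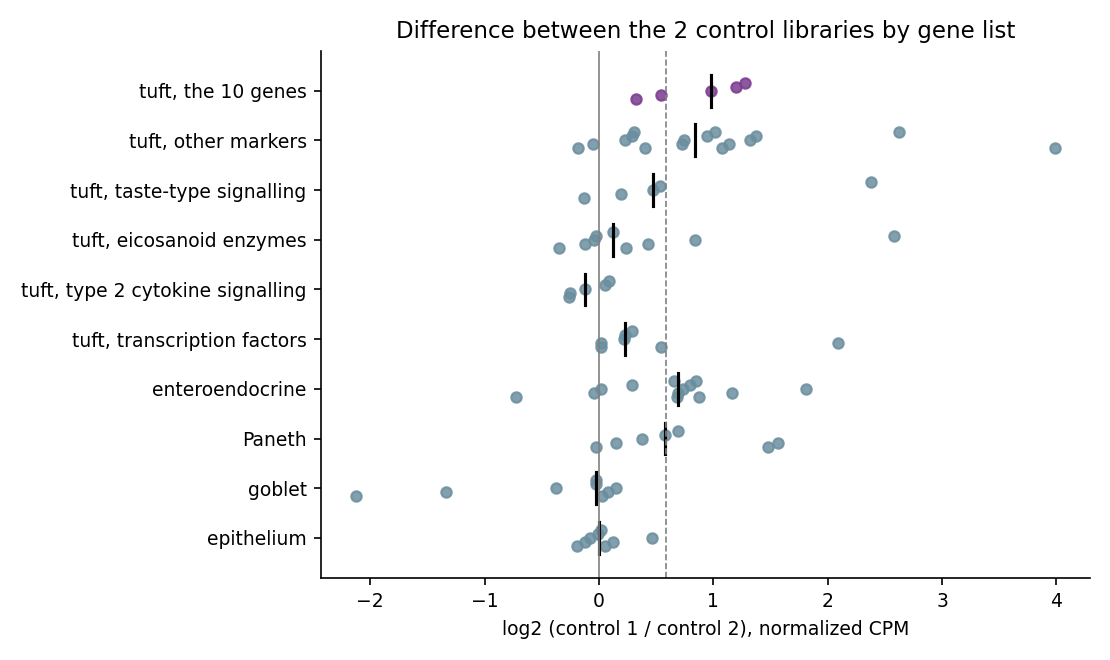
Each point is 1 tested gene with more than 3 counts in both controls, placed by the log2 ratio of control 1 to control 2 in normalized CPM. Black bars are list medians, the solid line is no difference and the dashed line 1.5-fold. The 5 tested tuft cell genes (purple) all lie above 0, as do most other tuft markers and enteroendocrine genes, whereas epithelial and most goblet genes lie near 0.

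The 60 other tuft cell genes were grouped by role, and 43 were tested. Of these, 1 rose (Ptgs2) and 1 fell (Krt23) at an adjusted p under 0.05, against 3.57% of all genes. Ptgs2 passed the filter on low counts only through the mimic libraries, where it was high, so its rise adds nothing to the count, and Krt23 passed in both groups. Their median log2 fold change was -0.036, beside -0.012 for all genes, and 21 values were above 0 and 22 below it.

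The taste-type signalling list holds the receptors and the G protein, phospholipase and calcium release steps ahead of Trpm5. Of its 9 genes 5 were tested and 0 were called, with a median log2 fold change of -0.14. Itpr3, the inositol trisphosphate receptor of the cascade, which other epithelial cells use too, had the highest level at 38.4 to 47.2 TPM and a log2 fold change of 0.07 ± 0.10 (SE). Tas1r3, a subunit of the sweet and umami taste receptors, had 1.92 to 2.75 TPM and a log2 fold change of -0.17 ± 0.22 (SE). Gnat3, the taste G protein gustducin, had 1 count in each control and 0 with the mimic.

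Of the 11 genes of eicosanoid synthesis and breakdown, 10 were tested, 1 rose and 0 fell, with a median log2 fold change of 0.14. Ptgs2, the inducible cyclooxygenase 2, had 2 and 0 counts in the controls, against 22 and 13 in the mimic libraries. Because both controls were at or under the floor of 3 counts per library, the mimic level was set against that floor. At 0.534 ± 0.238 normalized CPM (SD, n = 2), the mimic mean was 6.1-fold above it. This figure leaves out counting error and is not a lower bound, and the 95% interval of edgeR's fold change began at 4.06. Only the mimic libraries took Ptgs2 past the filter on low counts. With at least 10 counts required in every library it was not tested, so its p-values are given as a description. Its adjusted p was 0.0471 in edgeR's quasi-likelihood test and 0.0537 in the legacy form of that test, and it passed in 5 of 10 alternatives, in which the adjusted p lay between 0.000221 and 0.319. It did not pass without control 1 (0.0715) or without mimic replicate 3 (0.103). Ptgs2 is not particular to tuft cells. Lta4h, which makes leukotriene B4, had 116 to 150 TPM and a log2 fold change of 0.25 ± 0.09 (SE, adjusted p = 0.157 in edgeR). Mgst3 had 113 to 135 TPM and a log2 fold change of 0.07 ± 0.11 (SE).

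Type 2 cytokine receptors and their signalling had 5 of 6 genes tested and 0 called, with a median log2 fold change of 0.02. Stat6, which carries the Il4 and Il13 signal to the nucleus, had 33.0 to 43.8 TPM and a log2 fold change of 0.02 ± 0.11 (SE). Il13ra1, a chain of the Il13 receptor, had 9.75 to 15.8 TPM and a log2 fold change of 0.26 ± 0.15 (SE). Transcription factors and cofactors had 7 of 9 genes tested and 0 called, with a median of 0.16. Sox4 had a log2 fold change of 0.17 ± 0.11 (SE) and Sox9 of 0.16 ± 0.17 (SE), and both are also expressed by crypt progenitors.

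Other tuft markers had 16 of 25 genes tested, of which 0 rose and 1 fell, with a median log2 fold change of -0.14. Krt23, a keratin gene, had 1016 and 427 counts in the controls, against 235 and 274 in the mimic libraries. In normalized CPM these were 26.5, 13.8, 7.50 and 7.70, so both mimic libraries lay below both controls. Its log2 fold change was -1.41 ± 0.29 (SE, edgeR adjusted p = 0.046), and it passed in 9 of 14 alternatives, with an adjusted p between 0.000123 and 0.325. Without control 1, the higher of the controls, the log2 fold change was -0.86 (adjusted p = 0.0335). Anxa4 and Cd24a, the most abundant of the list and both widely expressed in the epithelium, had log2 fold changes of 0.38 ± 0.13 (SE, adjusted p = 0.132) and 0.15 ± 0.12 (SE, adjusted p = 0.468). At least 1.5-fold higher in control 1 than in control 2 were 10 of the 16.

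**Figure D5:**
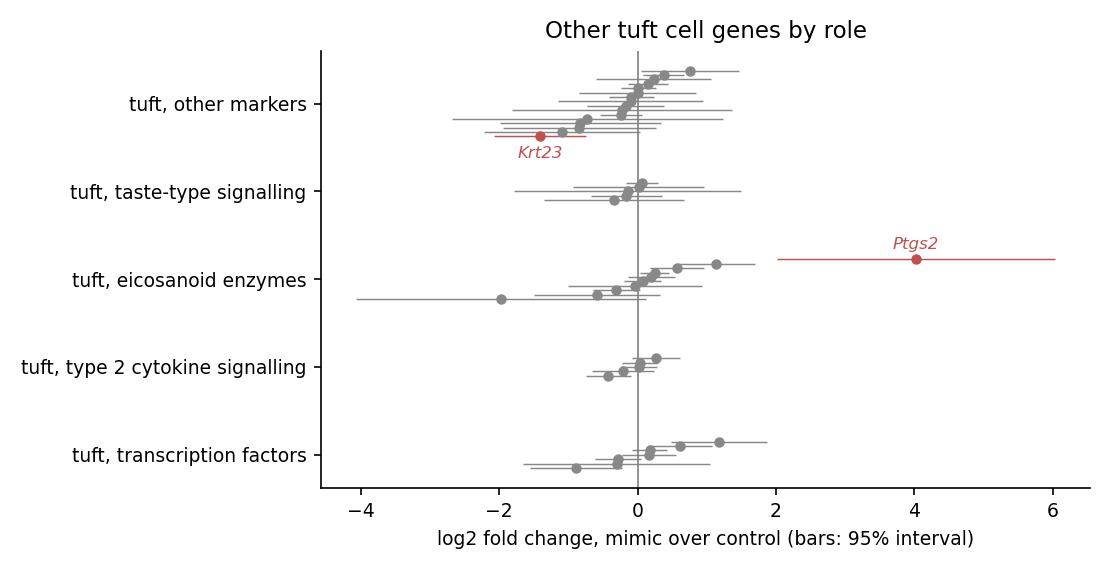
The x axis gives edgeR's log2 fold change of mimic over control for the 43 tested genes of the 5 role lists, with 95% intervals. Red marks the genes past an adjusted p of 0.05, Ptgs2 above 0 and Krt23 below 0, and grey the rest. The fitted value of Ptgs2 depends on the prior count, since its controls had 2 and 0 counts.

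Several of the 10 genes are also used by blood cells, neurons or mast cells, so markers of these were read. Of 8 mast cell markers, 6 were at 0 in all libraries, Cpa3, Fcer1a, Ms4a2, Mcpt4, Mcpt1 and Gata2, and Tpsb2 was at 0 in 3. Kit, which is not particular to mast cells, had 6.57 to 19.9 TPM and was highest in control 1. The platelet genes Pf4 and Ppbp were at 0 in all libraries, as was Tyrobp among the leukocyte markers, whose list of 12 summed to between 3.84 and 5.52 TPM. Of 8 neuronal markers 4 were tested and the list summed to between 4.96 and 8.02 TPM. Mesenchymal markers summed to between 0.50 and 0.72 TPM.

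In the test of mimic against control, 3.57% of all genes tested passed an adjusted p under 0.05. Among the lists, 0 of 13 enteroendocrine genes, 0 of 3 tested leukocyte genes, 0 of 1 mast cell gene, 0 of 4 neuronal and 0 of 2 mesenchymal genes passed. Of 8 goblet genes 1 fell, Spink4, with a log2 fold change of -0.59 ± 0.11 (SE, edgeR adjusted p = 0.0353). The goblet values went both ways, 4 above 0 and 4 below it. Just short of the threshold, Tff3 had -0.43 ± 0.09 (SE, edgeR adjusted p = 0.0511) and Spdef 0.72 ± 0.17 (SE, edgeR adjusted p = 0.0613). Of 8 Paneth genes 1 fell, Pnliprp2, with -1.97 ± 0.22 (SE, edgeR adjusted p = 0.00885), and 1 value was above 0 and 7 below it. Of 8 general epithelial genes 1 rose, the transcription factor Cdx1, with 0.47 ± 0.10 (SE, edgeR adjusted p = 0.0477, and 0.0516 in the legacy form). Of the 2 tested genes of the platelet list Gp1bb rose, with 1.85 ± 0.30 (SE, edgeR adjusted p = 0.026). Itga2b, the other, was below 0, with -0.78 ± 0.32 (SE, edgeR adjusted p = 0.186). The platelet genes Pf4 and Ppbp had no counts.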

How the data were processed

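RNA-seq was analysed in 4 libraries of mouse SI organoids, 2 with a miRNA mimic control and 2 with the miR-181a-5p mimic, grouped by their titles. Per the study's methods and submitters' processing notes, the authors ran Trimmomatic on single-end reads (100 cycles) and RSEM on GRCm38 transcripts, and deposited expected counts per gene, not normalized, and TPM. Versions and the annotation release are not given in the sources used here. The methods describe depletion of ribosomal RNA and the labels poly(A) enrichment. Per table, a further 3 columns matched no sample and were not used.

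After rounding of the expected counts, edgeR 4.0.16 under R 4.3.3 served for filterByExpr, TMM scaling, estimateDisp, glmQLFit with legacy set to FALSE and glmQLFTest, and p-values of 17155 genes were adjusted by Benjamini-Hochberg. The test had been set as glmQLFit without its form. The form was set after the counts of called genes under both (612, and 580 in the legacy form) and the results of the 10 genes had been seen, because it is the form used on the whole series before. The legacy form is given as an alternative. The standard error is the size of the log2 fold change over the root of F. Levels between genes are TPM. Poisson and 95% intervals of counts, and the floor of 3 counts, cover counting error only. Steps were tested on simulated counts. Symbols matched 55141 of 55487 identifiers, and coordinates and 3' UTRs came from GENCODE release 21 for mouse. DESeq2 1.42.0 and limma 3.58.1 served as alternatives, limma on log2(TPM + 1) or log2(TPM + 0.1) with at least 1 TPM, which understates changes of low genes.

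The 10 genes and all gene lists were chosen with earlier results of these data known. By rule, named beside the 10 were the genes of each other list past the threshold (at most 4) and, where fewer than 2 passed, the 2 with the highest TPM, the latter described here for the tuft cell lists only. Other genes were named after their values were seen. The comparison of the controls, the legacy form and the alternatives for the other called genes were added after the data were seen. Mature miRNA is not measured by such libraries.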

Additional observations from a re-analysis of the deposited data

How the results depend on the processing

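In each of the 14 alternatives 0 genes were called, of 10 tested in the 2 fits without a filter and of 3 to 7 tested in the other 12, at an adjusted p under 0.05 alone or with a fold change of at least 2. Of 66 alternative log2 fold changes of the 5 tested genes, 50 kept their direction and 16 reversed, and 0 passed the threshold. Hpgds, at -0.003, turned to 0.005 with RLE factors, 0.02 with library totals alone, 0.004 without the filter on low counts, 0.0009 in edgeR's exact test, 0.01 in DESeq2 and 0.002 in the legacy form of the quasi-likelihood test. Dclk1, at -0.07, turned to 0.27 in limma on log2(TPM + 1), with and without a filter, and to 0.55 on log2(TPM + 0.1). Leaving out 1 library at a time gave -0.17 to 1.09 for Pou2f3, -0.43 to 0.10 for Trpm5, -0.14 to 0.17 for Hpgds, -0.45 to 0.52 for Dclk1 and -0.71 to 0.48 for Avil. Pou2f3 turned below 0 without control 2 (-0.17) or mimic replicate 4 (-0.06), Hpgds above 0 without mimic replicate 4 (0.03), and Trpm5, Hpgds, Dclk1 and Avil above 0 without control 1 (0.10, 0.17, 0.52 and 0.48). The number of genes whose groups did not overlap was 0 of 5 in the main fit, against 58.4% of all genes. That share is not given for the alternatives. The number was 2 of 10 without the filter on low counts and 1 of 3 in limma on log2(TPM + 1) and on log2(TPM + 0.1). It was 3 of 10 in limma on TPM without a filter, and 1 to 6 when a library was left out, where a lone library cannot overlap itself. The cause of these shifts was not tested, and this includes the length estimates given above for Dclk1, Trpm5 and Hpgds and the smaller number of libraries. Over all alternatives the adjusted p lay between 0.161 and 0.898 for Avil and between 0.193 and 0.962 for Pou2f3. Over the alternatives, Cdx1 passed in 7 of 14, Gp1bb in 10, Pnliprp2 in 11 and Spink4 in 9, with no change of direction. All genes called numbered 612, 580 in the legacy form, 1778 in edgeR's exact test, 1330 in DESeq2, 192 without the filter, 75, 27 and 2 in the TPM fits, and 373 to 2365 when a library was left out. No paired analysis was possible because the groups share no replicate number. Depth limits Il25, Gfi1b and Sucnr1, at 2 counts or fewer, and Alox5ap and Ptgs1, at 15 or fewer.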
